A study of Mus musculus with 2 samples.

Results

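The 9 genes described here encode receptors and ligands of the colony-stimulating factor and stem cell factor systems, and they were followed in unstimulated macrophages with a mutant STAT2 and in wild-type macrophages. They are Csf1r and its ligand gene Csf1, the receptor chain genes Csf2ra, Csf2rb, Csf2rb2 and Il3ra, Csf3r, and Kit with its ligand gene Kitl. Members were chosen by name, and all 9 were found among the 22060 genes of the deposited count table through their Ensembl identifiers. The series holds 1 library from cells with STAT2 T403A, in which threonine 403 is replaced by alanine, and 1 library from WT cells. Both libraries came from C57BL/6 bone marrow of 8-week-old mice, cultured for 7 days with M-CSF and collected without treatment (0 h). How the substitution was made, how many animals gave marrow and whether marrow was pooled are not stated in the sources at hand. The M-CSF in the medium is the protein that Csf1 encodes, so both cultures received this ligand from outside whatever their own Csf1 transcript level.

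CSF1R and KIT are related receptor tyrosine kinases. M-CSF acts through CSF1R to drive the growth, survival and differentiation of macrophages, whereas stem cell factor acts through KIT on haematopoietic progenitors and mast cells. Receptors for GM-CSF and IL-3 pair a ligand-specific alpha chain (CSF2RA or IL3RA) with a signalling beta chain that works through JAK2 and STAT5. Mice carry a pair of beta chain genes: Csf2rb encodes the common beta chain, shared by GM-CSF, IL-3 and IL-5, and Csf2rb2 encodes a closely related beta chain used by IL-3. CSF3R is the G-CSF receptor, best known from neutrophils. STAT2 is part of the complex that carries type I interferon signals to the nucleus.

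Csf2rb and Csf2rb2 lie head to head on chromosome 15, 20030 bases apart with no other annotated gene between them (GENCODE M21, GRCm38). Their coding sequences were 95.2% identical over 2631 aligned bases, and the longest run without a difference was 242 bases. That run is printed because a short read from within it could come from either gene. It spans chr15:78284630-78284871 on the minus strand for Csf2rb2 and chr15:78348577-78348818 on the plus strand for Csf2rb, and it is coding in both.
Csf2rb2 and Csf2rb: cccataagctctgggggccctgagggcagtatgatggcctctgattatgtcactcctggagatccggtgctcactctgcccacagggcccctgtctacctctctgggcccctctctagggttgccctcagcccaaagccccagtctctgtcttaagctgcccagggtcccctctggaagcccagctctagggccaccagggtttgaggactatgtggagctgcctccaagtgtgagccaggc
The 60-base coding stretch with the most differences is printed to show what tells reads of the pair apart. It holds 13 differing bases, which are in capitals, and lies at chr15:78294379-78294438 on the minus strand for Csf2rb2 and at chr15:78338893-78338952 on the plus strand for Csf2rb.
Csf2rb2: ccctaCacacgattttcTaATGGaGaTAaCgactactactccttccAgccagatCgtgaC
Csf2rb: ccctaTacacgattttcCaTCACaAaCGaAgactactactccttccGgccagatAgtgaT
Of all 50-base stretches in the annotated transcripts, 18.4% of those of Csf2rb2 also occurred in Csf2rb, and 12.3% of those of Csf2rb occurred in Csf2rb2. At 100 bases the shares were 6.82% and 4.63%. Read length and the treatment of multiply mapped reads are not stated in the sources at hand, so the split of counts between this pair is less certain than the sum.

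Promoter sequences from RefSeq (GRCm38.p6, 250 bases before to 50 bases after the transcription start) were read for 7 of the 9 genes. No window was read for Csf1r or Csf2rb, so the match counts do not cover these genes. Csf2rb2 is shown as the receptor chain with the widest difference between the libraries, Csf3r as another lower receptor, Csf2ra as a receptor chain whose levels were closer, and Kitl as a ligand gene that was higher in T403A. Capitals mark matches, on either strand, to the core of the interferon-stimulated response element (GAAA repeated after any 2 bases), to the STAT dimer element TTCNNNGAA, and to GAGGAA, a core bound by the macrophage factor PU.1. The windows are chr15:78305672-78305971 on the minus strand, chr4:126024409-126024708 on the plus strand, chr19:61228369-61228668 on the minus strand and chr10:100015571-100015870 on the plus strand.
Csf2rb2: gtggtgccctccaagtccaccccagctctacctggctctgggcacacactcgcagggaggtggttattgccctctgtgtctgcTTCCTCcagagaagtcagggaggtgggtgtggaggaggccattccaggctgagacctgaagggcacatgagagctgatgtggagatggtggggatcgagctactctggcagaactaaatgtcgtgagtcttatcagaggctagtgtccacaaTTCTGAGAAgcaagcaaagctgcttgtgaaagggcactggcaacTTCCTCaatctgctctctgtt
Csf3r: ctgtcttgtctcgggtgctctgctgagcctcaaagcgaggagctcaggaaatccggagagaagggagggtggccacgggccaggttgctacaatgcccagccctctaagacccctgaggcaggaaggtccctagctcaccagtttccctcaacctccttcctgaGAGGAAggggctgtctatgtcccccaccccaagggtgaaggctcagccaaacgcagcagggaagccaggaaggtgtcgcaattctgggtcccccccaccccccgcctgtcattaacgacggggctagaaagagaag
Csf2ra: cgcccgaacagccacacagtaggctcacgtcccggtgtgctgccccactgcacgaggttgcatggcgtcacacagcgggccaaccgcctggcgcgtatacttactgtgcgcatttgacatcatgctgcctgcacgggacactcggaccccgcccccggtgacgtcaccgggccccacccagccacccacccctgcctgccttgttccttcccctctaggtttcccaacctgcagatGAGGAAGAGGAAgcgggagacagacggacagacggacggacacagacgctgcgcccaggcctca
Kitl: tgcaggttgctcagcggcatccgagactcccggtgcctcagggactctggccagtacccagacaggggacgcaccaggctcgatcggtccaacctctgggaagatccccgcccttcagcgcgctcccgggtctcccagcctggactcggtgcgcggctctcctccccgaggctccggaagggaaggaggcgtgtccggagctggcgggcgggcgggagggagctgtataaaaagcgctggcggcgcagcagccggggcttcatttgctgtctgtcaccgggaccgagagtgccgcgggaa
One window was read per gene, the one with the lowest start coordinate where a gene had several (Kit). None of the 7 genes held the interferon-stimulated response element core there, beside 3.52% of all 27025 genes with a RefSeq window of this length. TTCNNNGAA was found in the Csf2rb2 window alone, starting 15 bases before the transcription start, beside 8.37% of all genes. GAGGAA was found in 4 of the 7 genes (Csf2ra, Csf2rb2, Csf3r and Kit), beside 28.2% of all genes. In Csf2ra its 2 copies run into each other. These matches describe the letters in the windows and say nothing of binding.

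The T403A library held 18658381 counts and the WT library 16033032. Counts were scaled with TMM and expressed as CPM, the count relative to the scaled library total. Exact 95% intervals are given with the ratios and cover counting error only. With 1 library per genotype no difference has a replicate check, so each statement compares these 2 libraries and no p-value is given. A gene was called higher or lower when its counts summed to 20 or more, the libraries differed by 1.5-fold or more and the interval excluded 1. Of 11199 genes with enough counts, 13.5% were called higher and 10.8% lower, 1515 and 1214 genes. Scaling by library total gave 2290 higher and 890 lower, because all log2 ratios, and so their median, then moved up by 0.19. Stat2 itself was at 84.4 CPM in T403A and 376 CPM in WT. Since the change is a single amino acid, this difference in transcript level cannot serve as a check of the labels.

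All 9 genes had enough counts. Among them 4 were called lower in T403A (Csf2rb2, Csf2rb, Csf1 and Csf3r), 2 were called higher (Kit and Kitl), and Csf1r, Csf2ra and Il3ra met neither condition. The background share of lower calls was 10.8% over all genes and 10.6% over the 8182 genes that averaged 10 CPM or more, where Csf2rb2, Csf2rb, Csf3r and Kitl lie and 8.3% were called higher. Among the 3017 genes under 10 CPM, where Csf1 and Kit lie, 27.7% were called higher and 11.6% lower. The median log2 ratio of the 9 genes was -0.38, beside 0.01 over all genes with enough counts. All 7 genes other than Kit and Kitl had a ratio under 1. This also held with scaling by library total, where Csf2ra came closest to no difference at a log2 ratio of -0.05. In whole cultures, fewer cells of a type and less RNA per cell cannot be told apart.

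**Figure D1:**
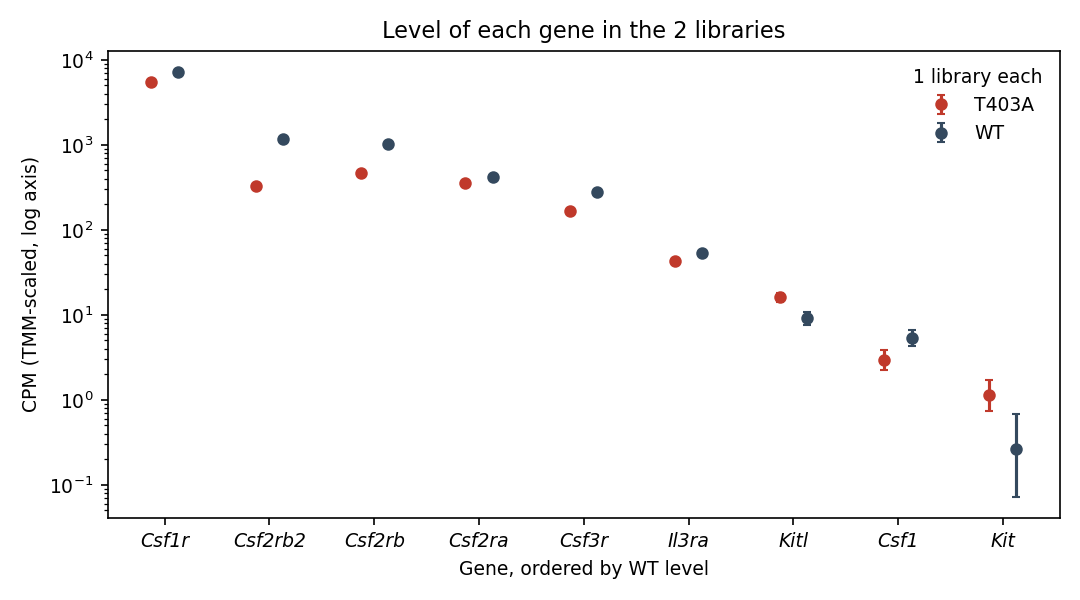
TMM-scaled CPM of each gene (log axis) in the T403A library (red) and the WT library (dark grey), 1 library each; bars are exact 95% Poisson intervals and cover counting error only. Csf2rb2 is at 324 CPM in T403A and 1176 CPM in WT, while Kit and Kitl are the genes whose T403A point lies above the WT point.

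Csf1r, the M-CSF receptor (ENSMUSG00000024621, chromosome 18, 61100598 to 61132149, plus strand, protein-coding), was by far the most abundant of the 9. It had 109742 counts in T403A and 107205 in WT, which was 5503 CPM (95% Poisson interval 5471 to 5536) in T403A and 7146 CPM (7103 to 7189) in WT. The T403A level was thus 1.30-fold lower (interval 1.29 to 1.31), within the 1.5-fold limit. Csf1r took 0.588% of all T403A counts (95% Wilson interval 0.585 to 0.592) and 0.669% of all WT counts (0.665 to 0.673). By TPM, the library-relative level that divides counts by gene length, it ranked 16th of all genes in T403A and 17th in WT. The size of the difference depended on scaling, with a log2 ratio of -0.38 by TMM and -0.19 by library total. A limit is that 873 exonic bases of Csf1r overlap Hmgxb3 on the opposite strand.

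Csf1, the gene of the ligand M-CSF (ENSMUSG00000014599, chromosome 3, 107741048 to 107760469, minus strand), was near the low end. It had 59 counts in T403A and 81 in WT, or 2.96 CPM (2.25 to 3.82) in T403A and 5.40 CPM (4.29 to 6.71) in WT. The T403A level was 1.82-fold lower (1.29 to 2.60), so the interval reached below the 1.5-fold limit. Il34, the gene of the other ligand of CSF1R, had 0 counts in both libraries, which allows up to 0.150 CPM in T403A and 0.20 CPM in WT. Transcripts of the receptor were therefore abundant in both libraries, while those of its ligands were few.

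The GM-CSF and IL-3 receptor genes split by chain. Csf2rb2, the beta chain used by IL-3 (ENSMUSG00000071714, chromosome 15, 78282507 to 78305721, minus strand), had 6461 counts in T403A and 17648 in WT. This was 324 CPM (316 to 332) in T403A and 1176 CPM (1159 to 1194) in WT, 3.63-fold lower in T403A (3.53 to 3.74). Only 2.72% of all genes with enough counts had a smaller ratio. Csf2rb, the common beta chain (ENSMUSG00000071713, chromosome 15, 78325752 to 78353847, plus strand), had 9328 counts in T403A and 15193 in WT. It was at 468 CPM (458 to 477) in T403A and 1013 CPM (997 to 1029) in WT, 2.17-fold lower (2.11 to 2.22). The sum of the pair was 792 CPM in T403A and 2189 CPM in WT, 2.76-fold lower (2.71 to 2.82). This sum does not depend on how reads were divided between the 2 genes. Any reads left out as multiply mapped would still be missing from it. Both genes also overlap a microRNA gene model over 62 exonic bases on their own strand.

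The alpha chains differed less. Csf2ra, which gives the GM-CSF receptor its specificity (ENSMUSG00000059326, chromosome 19, 61223957 to 61228429, minus strand), had 7092 counts in T403A and 6304 in WT. Its level was 356 CPM (347 to 364) in T403A and 420 CPM (410 to 431) in WT, 1.18-fold lower (1.14 to 1.22). Il3ra, the IL-3 receptor alpha chain (ENSMUSG00000068758, chromosome 14, 14346275 to 14356011, plus strand), had 851 counts in T403A and 791 in WT. It was at 42.7 CPM (39.9 to 45.6) in T403A and 52.7 CPM (49.1 to 56.5) in WT, 1.24-fold lower (1.12 to 1.36), and 46 of its exonic bases overlap a predicted gene on the opposite strand. Neither alpha chain met the 1.5-fold limit under TMM, library total, upper-quartile or DESeq2 scaling.

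**Figure D2:**
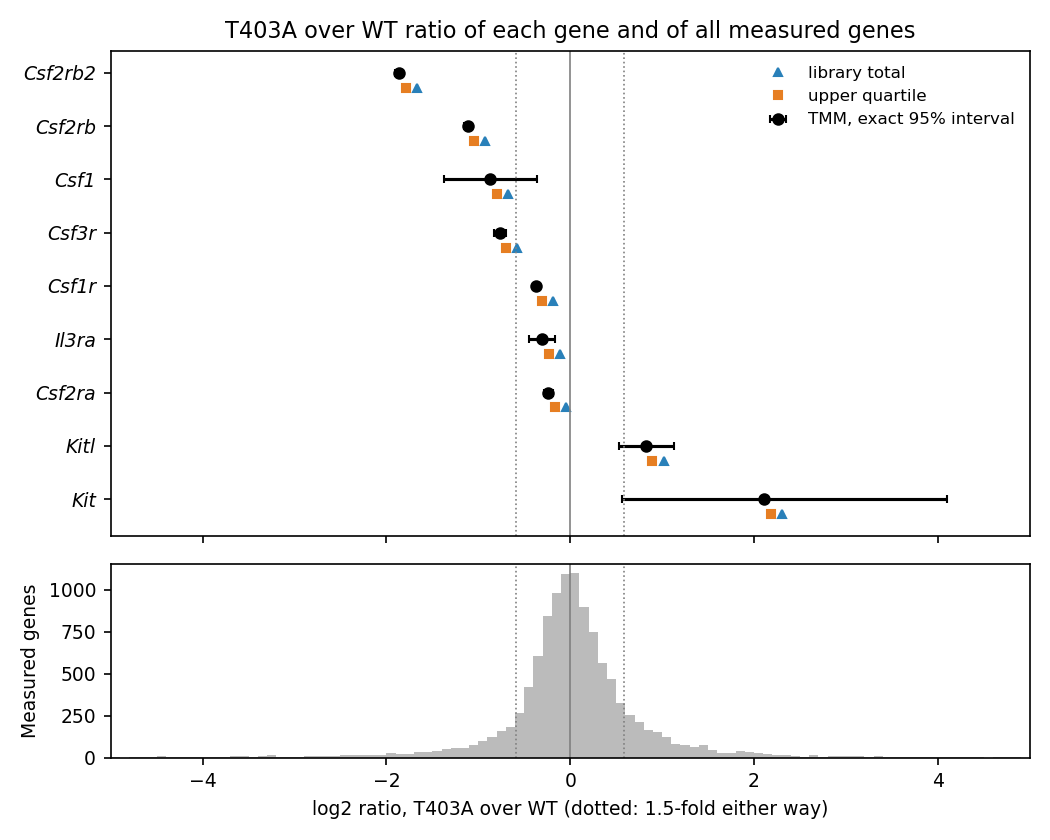
Upper panel, log2 ratio of T403A over WT for each gene with its exact 95% counting interval (black, TMM), and the value under library total and upper-quartile scaling; lower panel, the same ratio for all 11199 genes with enough counts, with dotted lines at 1.5-fold. The beta chain genes lie in the lower tail at -1.86 and -1.11, the alpha chains and Csf1r lie inside the dotted lines, and the interval of Kit is the widest.

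Ratios between genes of one library do not depend on library scaling, and they showed a different chain balance. Per base of gene length, Csf2rb2 had 1.06 times the reads of Csf2rb in T403A (1.03 to 1.10) and 1.78 times in WT (1.74 to 1.82). Csf2ra had 2.99 times the reads per base of Csf2rb in T403A (2.90 to 3.09) and 1.63 times in WT (1.59 to 1.68). Against Csf2rb2 it had 2.81 times the reads per base in T403A (2.72 to 2.91) and 0.916 times in WT (0.890 to 0.942). In these libraries the GM-CSF alpha chain thus exceeded both beta chain genes in T403A, whereas in WT it lay between them. With the longer M21 exon length of Csf2ra in place of the deposited one, an alternative added after the data were seen, its TPM was 449.6 in T403A and 441 in WT and it kept this place in both orders. Il3ra had 0.210 times the reads per base of Csf2rb2 in T403A (0.196 to 0.226) and 0.0716 times in WT (0.0666 to 0.0769). All of these ratios involve a beta chain gene, so the limit on multiply mapped reads applies to them.

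**Figure D3:**
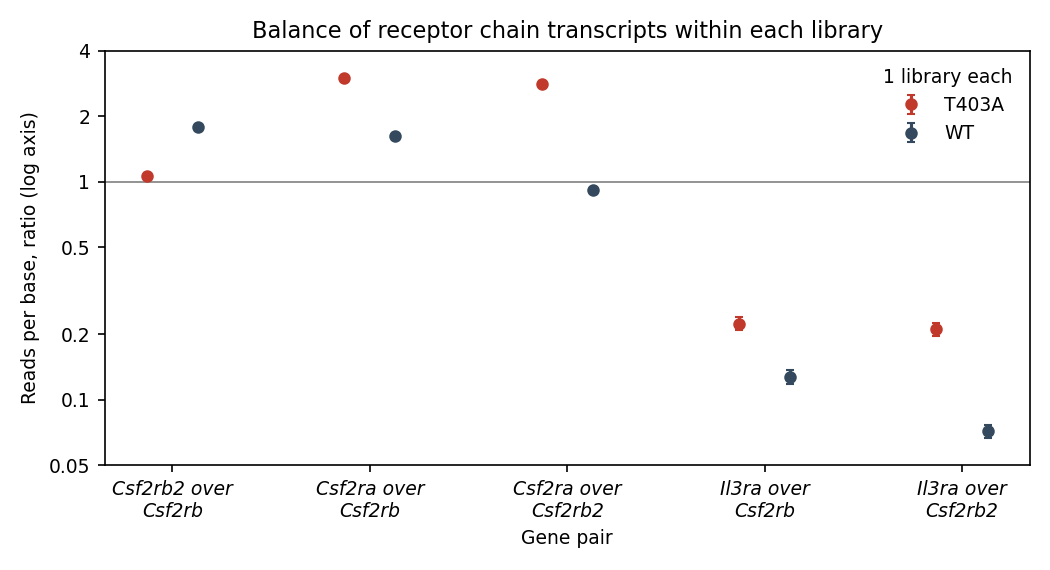
Ratio of reads per base between receptor chain genes within each library (log axis; T403A red, WT dark grey, 1 library each), with exact 95% intervals for counting error. Csf2ra lies above both beta chain genes in T403A (2.99 and 2.81), whereas in WT it lies above Csf2rb (1.63) and below Csf2rb2 (0.916).

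Csf3r, the G-CSF receptor (ENSMUSG00000028859, chromosome 4, 126024550 to 126044440, plus strand), was transcribed in both libraries at a moderate level. It had 3281 counts in T403A and 4197 in WT, or 165 CPM (159 to 170) in T403A and 280 CPM (271 to 288) in WT. The T403A level was 1.70-fold lower (1.62 to 1.78). This call was lost with scaling by library total, where the log2 ratio was -0.57, just inside the 1.5-fold limit. Of the 14 neutrophil markers examined, 6 had enough counts, of which 3 were higher in T403A, 1 was lower and 2 met neither condition. Over all genes with enough counts, 13.5% were higher and 10.8% lower, and under 10 CPM 27.7% and 11.6%. The summed level of the 14 markers was 80.2 CPM in T403A and 30.5 CPM in WT. Mmp8 (neutrophil collagenase) made up most of that sum at 68.2 CPM in T403A and 21.4 CPM in WT, S100a9 was 2.07-fold higher and Camp, on 10 counts in T403A and 22 in WT, was 2.92-fold lower. Elane and Ly6g had 0 counts in both libraries. Ltf was 1.93-fold higher, while S100a8, on 25 counts in T403A and 31 in WT, and Ngp, on 49 in T403A and 24 in WT, met neither condition. Csf3r was thus lower while the neutrophil marker sum, which was mostly Mmp8, was higher. The part of neutrophils in either value was not tested.

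Kit, the stem cell factor receptor (ENSMUSG00000005672, chromosome 5, 75574916 to 75656722, plus strand), was close to the detection floor. It had 23 counts in T403A and 4 in WT, or 1.15 CPM (0.731 to 1.73) in T403A and 0.267 CPM (0.0726 to 0.683) in WT. The ratio was 4.33-fold higher in T403A with a wide interval (1.48 to 17.2). Kitl, the gene of its ligand stem cell factor (ENSMUSG00000019966, chromosome 10, 100015630 to 100100416, plus strand), rested on more reads. It had 320 counts in T403A and 136 in WT, or 16.0 CPM (14.3 to 17.9) in T403A and 9.07 CPM (7.61 to 10.7) in WT, 1.77-fold higher (1.44 to 2.18). Its interval reached below the 1.5-fold limit.

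Markers of cells in which Kit or Kitl is typically found were few. Of 12 mast cell and basophil markers, only Hdc, the histamine-forming enzyme, had enough counts, and it was lower, with 7 counts in T403A and 17 in WT. The list summed to 1.55 CPM in T403A and 1.67 CPM in WT, and the defining genes Tpsb2, Tpsab1, Cma1, Mcpt4 and Fcer1a had 0 counts in both libraries. Without the count filter, 2 of its markers were higher in T403A: the mast cell protease Cpa3, with 8 counts in T403A and 0 in WT, and the IL-33 receptor Il1rl1, with 12 counts in T403A and 2 in WT. Of 13 progenitor markers 5 had enough counts, none was higher, and 2 were lower: Myb, on 7 counts in T403A and 21 in WT, and Cd34, on 5 counts in T403A and 15 in WT. Sox4, with 21 counts in T403A and 8 in WT, and Meis1, with 47 in T403A and 26 in WT, met neither condition; the ratio of Sox4 was 1.97 with an interval of 0.840 to 5.16. The progenitor list summed to 4.61 CPM in T403A and 5.87 CPM in WT, with Mecom, Hlf, Hoxa9, Erg and Mycn among the genes at 0 in both. Of 14 stromal and endothelial markers 6 had enough counts, none was higher and 3 were lower. These were Pecam1, with 2 counts in T403A and 40 in WT, Kdr, with 70 in T403A and 162 in WT, and Pdgfrb, with 15 in T403A and 41 in WT. The 14 genes of this list summed to 8.12 CPM in T403A and 20.6 CPM in WT, with Lum and Lepr at 0 in both. The sums of these lists were not higher in T403A, but single genes carried much of them. Hdc made up 1.13 of the 1.67 CPM of the mast cell list in WT and 0.351 of the 1.55 CPM in T403A. Kdr made up 10.8 of the 20.6 CPM of the stromal and endothelial list in WT and 3.51 of the 8.12 CPM in T403A. Among all genes under 10 CPM, 27.7% were called higher and 11.6% lower. The part of such cells in the values of Kit and Kitl was not tested.

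Within each library the 9 genes can be ordered only per length. In T403A the order by TPM was Csf1r (4089 TPM), Csf2ra (698), Csf2rb2 (248), Csf2rb (233), Csf3r (165), Il3ra (52.2), Kitl (9.85), Csf1 (2.03) and Kit (0.470). In WT it was Csf1r (4411 TPM), Csf2rb2 (748), Csf2ra (685), Csf2rb (419.7), Csf3r (234), Il3ra (53.6), Kitl (4.62), Csf1 (3.08) and Kit (0.0902). The orders thus differed only in the place of Csf2rb2 and Csf2ra. The closest neighbours were Csf2rb2 and Csf2rb in T403A and Csf2rb2 and Csf2ra in WT; both pairs differed beyond counting error, though not by more than 1.1-fold. TPM does not correct for the shift between the libraries, and on that scale Csf2ra was slightly higher in T403A than in WT.

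Ligands and receptors of the same families were mostly scarce. Csf2, Il3, Il5 and Il5ra had 0 counts in both libraries, and Csf3 had 0 counts in T403A and 3 in WT. Over all genes with enough counts, 13.5% were higher and 10.8% lower. Of the 13 genes in this list, 5 had enough counts, of which 2 were higher and 2 lower in T403A (median log2 ratio 0.12, beside 0.01 over all genes). The higher ones were Pdgfc, at 36 counts in T403A and 8 in WT, and Flt3l, the ligand of another progenitor receptor, at 86 counts in T403A and 23 in WT. Pdgfb was at 29.0 CPM in T403A and 62.7 CPM in WT, 2.16-fold lower, and Pdgfrb was 3.63-fold lower on 15 counts in T403A and 41 in WT. Pdgfa was at 15.3 CPM in T403A and 14.1 CPM in WT. The receptor gene Flt3 was barely detected, with 1 count in T403A and 5 in WT.

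Of all 11199 genes with enough counts, 8470 met neither condition, 10.8% were lower and 13.5% higher. Of 51 genes for proteins that signal at CSF1R and KIT, 50 had enough counts. Of these, 41 met neither condition, 8 were lower and 1 was higher in T403A. Their median log2 ratio was -0.13, beside 0.01 over all genes. The higher gene was Gab3, an adaptor of CSF1R signalling, at 16.8 CPM in T403A and 6.60 CPM in WT, 2.55-fold higher (2.03 to 3.23). Genes of the Src kinase family did not all go one way: Fgr, at 38.4 CPM in T403A and 101 CPM in WT, was 2.64-fold lower, Src 2.49-fold and Lyn 1.76-fold, while Fyn, at 45.5 CPM in T403A and 34.4 CPM in WT, met neither condition. The genes of the list with the highest counts were Syk, a kinase downstream of immune receptors, at 755 CPM in T403A and 958 CPM in WT, and Adam17, a protease that sheds CSF1R from the cell surface, at 666 CPM in T403A and 823 CPM in WT. With scaling by library total, 6 genes of this list were higher in place of 1.

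In the list of the JAK2-STAT5 pathway, through which beta chain receptors act, 7 of 19 genes with enough counts were lower and 1 was higher (median log2 ratio -0.31). Over all genes with enough counts, 10.8% were lower and 13.5% higher, with a median of 0.01. Jak2, the kinase bound by the beta chains, was at 62.4 CPM in T403A and 129 CPM in WT, 2.07-fold lower (1.92 to 2.22). Stat5a, at 38.6 CPM in T403A and 27.5 CPM in WT, and Stat5b, at 92.0 CPM in T403A and 86.2 CPM in WT, met neither condition. Among STAT5 targets, the cyclin gene Ccnd2 was 5.89-fold lower, with 21 counts in T403A and 93 in WT, and the feedback inhibitor gene Socs2 was 3.99-fold lower, with 6 counts in T403A and 18 in WT. Cish, another STAT5 target, had 2 counts in T403A and 3 in WT, too few to compare. The other lower genes of the list were Id2 (2.35-fold), Socs3 (2.30-fold), Spred2 (2.22-fold) and Socs1 (3.25-fold, on 29 counts in T403A and 71 in WT). Pim1, Bcl2l1 and Pim3 were among the genes that met neither condition. Pim1 was at 98.4 CPM in T403A and 103 CPM in WT, Bcl2l1 at 48.5 CPM in T403A and 48.1 CPM in WT. Pim3 was at 20.4 CPM in T403A and 18.8 CPM in WT. The activity of STAT5 was not tested. Pim2 was the 1 higher gene, at 5.87 CPM in T403A and 3.47 CPM in WT. The genes with the highest counts, Mcl1 (1086 CPM in T403A and 1342 CPM in WT) and Jak1 (324 CPM in T403A and 347 CPM in WT), were within 1.5-fold.

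Of 23 transcription factors known to act on Csf1r, Csf3r or Kit, 19 had enough counts, with 5 lower, 3 higher and 11 that met neither condition (median log2 ratio -0.20). The shares over all genes with enough counts were 10.8% lower and 13.5% higher (median 0.01). Spi1, which encodes PU.1, was at 405 CPM in T403A and 535 CPM in WT, 1.32-fold lower, and Maf was 1.36-fold lower, both within the limit. Runx1 was at 126 CPM in T403A and 129 CPM in WT. Egr1 was 3.61-fold lower (2.87 to 4.58), Myb 3.99-fold lower on the few counts given above, and Cebpb 3.30-fold lower (2.98 to 3.65). The 3 higher genes were Klf4, 1.68-fold (1.43 to 1.97), Lmo2, 1.63-fold (1.55 to 1.73), and Lyl1, 1.55-fold (1.45 to 1.65). Gata2, a factor of progenitors and mast cells, had 0 counts in T403A and 3 in WT.

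**Figure D4:**
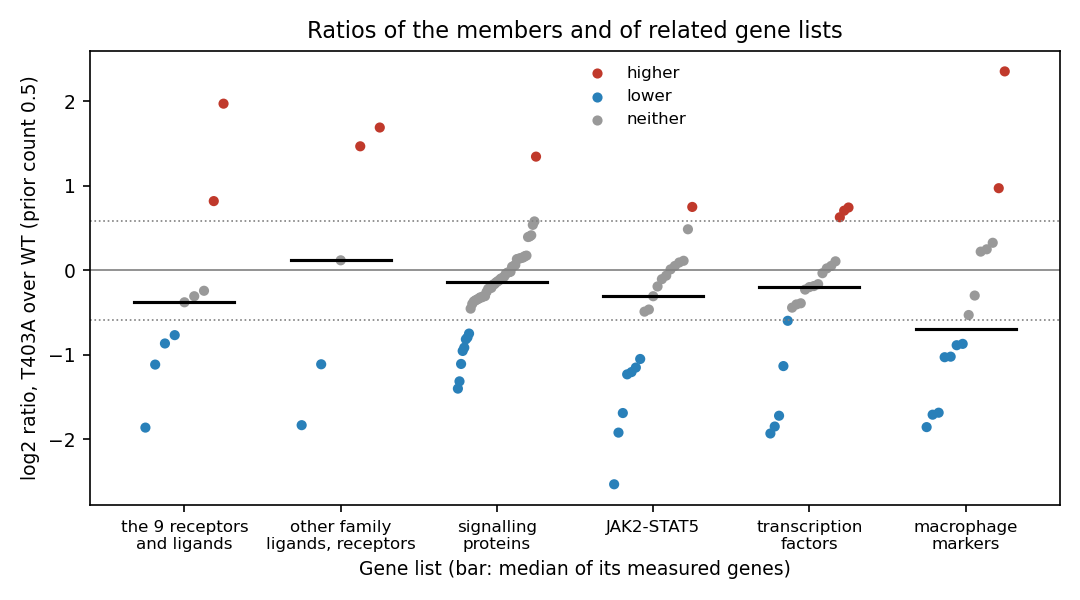
log2 ratio (T403A over WT, prior count 0.5) of each gene with enough counts in the 9 receptors and ligands and in 5 related lists, coloured by call, with the median of each list as a bar and dotted lines at 1.5-fold. The macrophage markers have the lowest median at -0.70, and the signalling proteins lie mostly inside the dotted lines.

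The cultures carried macrophage transcripts throughout. All 14 macrophage markers had enough counts, with 7 lower in T403A, 2 higher and 5 that met neither condition (median log2 ratio -0.70). Beside these, 10.8% of all genes with enough counts were lower and 13.5% higher (median 0.01). The summed level of the 14 markers was 41054 CPM in T403A and 50775 CPM in WT. Lyz2 (lysozyme) was within 1.5-fold at 29804 CPM in T403A and 36620 CPM in WT, Mrc1 (mannose receptor) was 5.12-fold higher, Lgals3 (galectin-3) 1.96-fold higher and Msr1 (a scavenger receptor) 3.62-fold lower. The remaining lower markers were C1qa (3.27-fold), Cd14 (3.21-fold), Itgam (2.04-fold), C1qb (2.03-fold), Adgre1 (1.85-fold) and C1qc (1.83-fold). Of 10 dendritic cell markers only Xcr1 and Itgae had enough counts, the first 4.21-fold lower and the second 5.77-fold higher in T403A, and the list summed to 2.76 CPM in T403A and 3.0 CPM in WT. The ratios of the receptor genes thus stood beside differences of similar size in macrophage markers, and the part of cell state in them was not tested.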

How the data were processed

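RNA sequencing counts of 2 libraries were used, 1 from T403A and 1 from WT macrophages. Per the file headers, the deposited values are raw read counts for each Ensembl gene, beside a gene length in bases. GRCm38 is the build in the submitters' processing notes, and the tools there are HTSeq 0.9.1, cutadapt 1.15, DESeq 1.30.0 and HISAT2; annotation release and strand setting are not stated in the sources at hand. Columns were matched to samples by title, and 21969 of 22060 identifiers received a symbol. Where symbols repeated, the identifier with more counts was kept. Every other gene value is a CPM, TPM or ratio computed from these counts.

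Counts were scaled with TMM (edgeR 4.0.16, R 4.3.3; no count model was fitted). Ratios carry exact 95% Clopper-Pearson intervals, levels exact Poisson intervals and shares Wilson intervals (scipy 1.17.1), all for counting error only. A count of 0 allows up to 3 counts. List medians used a prior count of 0.5. TPM used the deposited length, which differed from the M21 exon union for Csf1r and Csf2ra. The code for the calls was run on simulated libraries with counting error only and changes above the limit in genes with many counts. That run does not cover spread between replicates, changes near 1.5-fold or genes with few counts. DESeq2 1.42.0 size factors, library totals and upper quartiles were alternatives.

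The members and the 10 other gene lists were chosen with earlier results of these data known. Besides the members and Stat2, up to 4 genes were named per list, the 2 farthest from a ratio of 1 and the 2 with the highest counts, and genes at 0. Flt3l, Flt3, Csf3, Cish, Cpa3, Il1rl1, Src, Lyn, Fyn, Jak2, Stat5a, Stat5b, Pim2, Runx1, Cebpb, Klf4, Lmo2, Lyl1 and Gata2 were named after their values were seen. So were C1qa, C1qb, C1qc, Cd14, Itgam, Adgre1, Socs3, Pim1, Pim3, Bcl2l1, Id2, Spred2, Socs1, S100a8, Ngp and Ltf. Some listed genes are not reported here. Exon overlap was examined for the list genes named by ratio or by count. Of these, Adam17, Ccnd2, Cd34, Jak1, Maf, Meis1, Myb, Pdgfa, Pdgfc and Sox4 have exons that overlap a gene model on the opposite strand, and those of Meis1 also overlap one on the same strand. Protein sequences were not used here.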

Additional observations from a re-analysis of the deposited data

How the results depend on the processing

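With 1 library per genotype, no replicate could be left out. No paired analysis was possible because each genotype has a single library. Scaling by library total gave log2 ratios of -0.19 for Csf1r, -0.049 for Csf2ra, -0.92 for Csf2rb, -1.67 for Csf2rb2, -0.57 for Csf3r and -0.11 for Il3ra, shifts that follow from the scaling factor itself. Of the calls among the 9 genes it ended that of Csf3r alone. Upper-quartile scaling gave -0.31 for Csf1r, -0.17 for Csf2ra, -1.04 for Csf2rb, -1.79 for Csf2rb2 and -0.70 for Csf3r, with no call changed. DESeq2 size factors changed no call among the 9 genes and moved no list count by more than 1.5 times. A 2-fold limit left 1 of the 9 genes higher (Kit) and 2 lower (Csf2rb and Csf2rb2). A summed count of at least 100 left 1 higher (Kitl), because Kit was no longer counted, and the same 4 lower. With library totals, 6 signalling genes and 2 JAK2-STAT5 genes were higher. At 2-fold, 3 signalling genes were lower, 0 JAK2-STAT5 genes and 0 transcription factors were higher, and 1 macrophage marker was higher. With at least 100 counts, the other family genes had 1 higher and 1 lower, the stromal list had 1 lower, and the mast cell, progenitor and neutrophil lists had 0 lower, the dendritic cell list 0 lower and 0 higher, since fewer genes were counted. Without a count filter, 2 mast cell markers were higher. Depth limits Kit most, which had 4 counts in WT.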
